A study of Mus musculus with 11 samples.

Results

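The lateral piece of the mouse mandibular arch was compared between embryonic day 9.7 (E9.7) and E10.5. The comparison used 4 of the 11 arrays of the study: the 3 labelled as lateral tissue at E10.5 and the 1 labelled as lateral tissue at E9.7. The study split mandibular arches of ICR mouse embryos into a medial and a lateral piece and measured RNA of each on Affymetrix expression arrays. The other arrays hold medial tissue: 1 at E9.7, 3 at E10.5, 2 at E11.5 and 1 at E14.5. At E10.5 the medial sample was the tip of the arch, at the distal end of the lateral lingual swellings, and the lateral sample was what was left. How the pieces were divided at E9.7 was not given in the labels. No mutant, drug or transgene was involved, so the 2 lateral groups differ in stage alone as labelled. RNA was pooled from 40 embryos for each time point, and nothing in the labels says that the 3 E10.5 arrays came from separate pools, so their spread may be technical.

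Values are log2 signals, scaled so that all 11 arrays share 1 distribution (quantile normalization). A gene was counted as higher at E10.5 where each of the 3 E10.5 values was 2-fold or more above the E9.7 value, a log2 difference of 1, and as lower where each was 2-fold or more below it. A gene was called measured where the E9.7 value or at least 2 of the 3 E10.5 values reached 4.86, the 50th percentile of all values, here called the filter level. No test was made, since E9.7 had 1 array and gave no spread of its own. Each difference below is the E10.5 mean minus the E9.7 value on the log2 scale, followed by ± the SD of the 3 E10.5 arrays. The counts therefore compare these arrays and carry no error for the E9.7 side.

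The mandibular arch is the embryonic bulge that forms the lower jaw. Its bulk is mesenchyme derived from cranial neural crest, around a core of mesoderm that gives jaw muscle, with ectoderm outside and pharyngeal endoderm inside. Signals from the epithelium, among them FGF8 and endothelin 1, and homeobox genes of the Dlx family give the mesenchyme its position along the arch. Over the stages compared, the arch grows out and its crest cells leave an early migratory state, before cartilage and bone appear.

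Of 18194 genes with a named probe set, 11502 were measured. At E10.5, 111 of these were counted as higher (0.965% of the measured genes) and 46 as lower (0.4%), 157 in all (1.36%). The median difference was 1.42 over the higher genes and -1.40 over the lower genes, while the median over all measured genes was 0.03. On the mean of E10.5, 17 of the higher and 7 of the lower genes were 4-fold or more from E9.7. The E9.7 value lay under the filter level for 36 of the higher genes, and the E10.5 mean did so for 11 of the lower genes. The sizes of those differences rest on dim signal. The plot of level against difference shows that most measured genes lay near 0, with the 5th and 95th percentiles of the difference at -0.52 and 0.68.

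**Figure D1:**
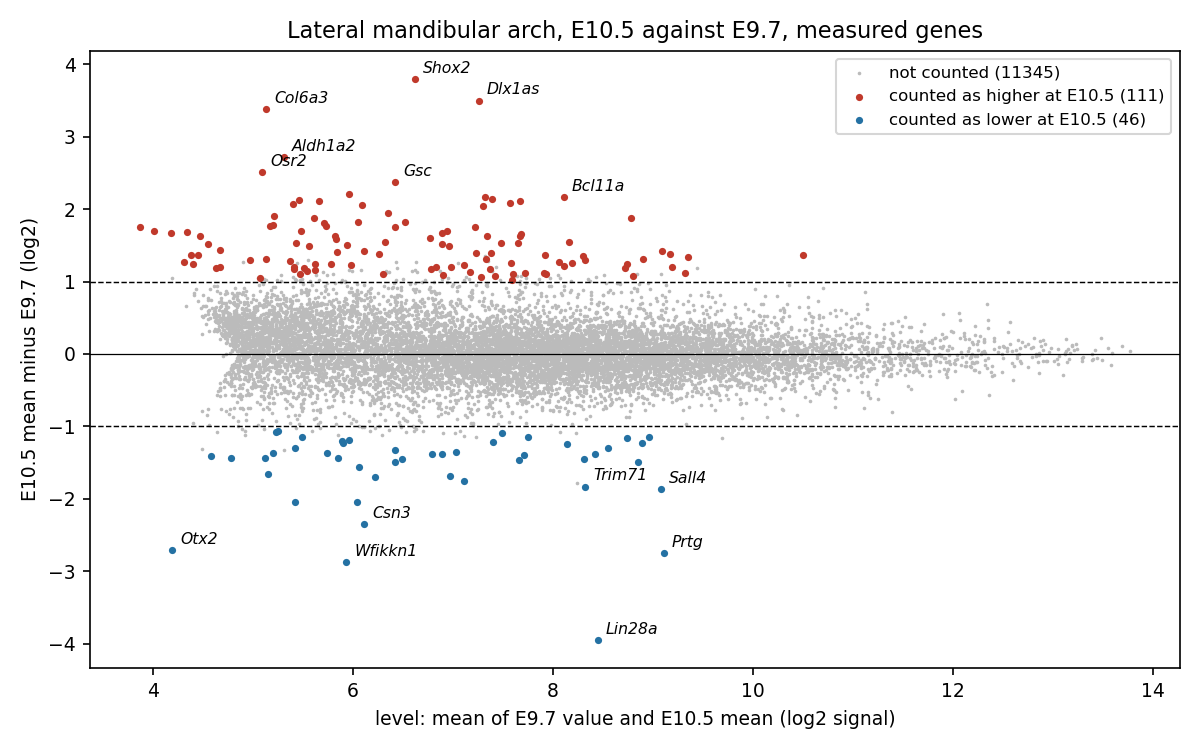
Each point is 1 of 11502 measured genes in lateral tissue, with its level (mean of the E9.7 value and the E10.5 mean, log2 signal) on the x axis and the E10.5 mean minus the E9.7 value (log2) on the y axis; dashed lines mark 2-fold. The 111 genes counted as higher (red) reach 3.80 for Shox2 and the 46 counted as lower (blue) reach -3.95 for Lin28a.

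The E10.5 arrays were close to one another and the E9.7 array stood apart from all of them. Pairs of E10.5 arrays had 19, 33 and 3 genes 2-fold apart, and the median SD of a gene over the 3 arrays was 0.11. The E9.7 array had 163 genes lower and 57 higher than replicate 1, 236 and 120 for replicate 2, and 314 and 116 for replicate 3. Replicate 1 had the fewest genes 2-fold from E9.7 and was close to it in some of the control-probe values. The poly-A control probe sets averaged 7.44 on the E9.7 array, 7.42 on replicate 1 and 7.87 on both replicates 2 and 3, and the BioD controls averaged 11.3, 11.2, 10.8 and 10.9. All hybridisation controls together averaged 10.1 on the E9.7 array and 9.90 to 9.92 on the E10.5 arrays, where replicate 1 lay with the other 2. Against replicate 1 alone the counts were 163 higher and 57 lower, and these held every one of the 111 and 46 genes by construction. Without replicate 1 the counts were 189 higher and 81 lower. The 3′ minus 5′ difference of the Actb control probe sets, a sign of RNA integrity, was 0.49 on the E9.7 array and 0.36 to 0.39 on the E10.5 arrays, and its part in the counts was not tested.

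How the arrays were brought to 1 scale moved the balance of higher and lower genes. Of the 157 counted genes 70.7% were higher. On the values as deposited the counts were 155 and 33, with 82.4% higher. With arrays centred on their own medians they were 62 and 77, with 44.6% higher, and the median over all measured genes was then -0.34. Of the genes named as counted, 63 were checked, and all kept the direction of their difference under these scales. Each differed by 1 or more in every replicate, so a change of direction was unlikely from the start. The difference moved by the SD of the E10.5 arrays or more in 42 of the 63 with centring. On the values as deposited it did so in 27. In bulk tissue, fewer cells of a type and less RNA per cell cannot be told apart.

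Just inside the threshold for higher genes lay Hsd11b2, with 1.01 as the smallest of its 3 replicate differences, Lox (1.01) and Eva1a (1.01), and just outside it lay Irf2bpl (0.99), Tob1 (0.99) and Aldh1a7 (0.99). For lower genes, Epop (-1.0), Edn1 (-1.02) and Tafa4 (-1.03) lay just inside, and Pawr (-0.98) and Foxl2os (-0.98) just outside. Of the 157 genes, 54 had 2 or more measured probe sets. In 53 of these all probe sets had a difference of the same sign, and in 31 at least 2 probe sets met the count rule. Only 1 probe set met it for Csf1r and Pcdh18, with 3 measured each. The same held for Sim2, Col6a2, Itga8, Fzd1, Cdh6, Lox, Jun and Greb1l, with 2 measured each.

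The 3 highest differences were those of Shox2, Dlx1as and Col6a3. Shox2, a homeobox gene needed for palate and limb growth, had the largest difference. Its values were 4.72 at E9.7 and 8.63, 8.58 and 8.34 at E10.5, 13.9-fold higher on average (3.80 ± 0.16). Dlx1as, an antisense transcript of the Dlx1 locus, was next at 5.51 at E9.7 and 9.14, 8.82 and 9.06 at E10.5 (3.50 ± 0.17). Dlx1 itself, whose difference was -0.43, was not counted. Gsc, a homeobox gene, had 5.24 at E9.7 and 7.69, 7.68 and 7.45 at E10.5 (2.37 ± 0.14). The 3 E10.5 arrays lay within a narrow band in each of these genes, and the E9.7 array stood alone below them.

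Osr2, Osr1, Tbx22, Bcl11a and Bcl11b were also among the 15 highest. The zinc finger genes Osr2 and Osr1 are expressed in arch and palate mesenchyme. Osr2 had 3.83 at E9.7 and 6.68, 6.33 and 6.04 at E10.5 (2.52 ± 0.32) and Osr1 had 6.28 at E9.7 and 8.30, 8.37 and 8.29 at E10.5 (2.04 ± 0.04). For Osr2 the E9.7 value lay below the filter level, while Osr1 was measured at both stages. Tbx22, a T-box gene whose human form is mutated in X-linked cleft palate, had 4.86 at E9.7 and 7.11, 7.0 and 7.09 at E10.5 (2.21 ± 0.06). The zinc finger genes Bcl11a and Bcl11b, which encode related transcriptional repressors, had clear signal at both stages. Their differences were 2.17 ± 0.06 and 2.11 ± 0.21, and 4 of the 6 measured probe sets of Bcl11a and 3 of the 4 of Bcl11b met the count rule.

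Col6a3, Aldh1a2, Igf1, Fat4, Islr, Smoc2 and Bmper were the rest of the 15 highest named genes. Col6a3, a chain of collagen VI, had 3.44 at E9.7 and 6.58, 7.13 and 6.74 at E10.5 (3.38 ± 0.29), from a dim value to a moderate one. Aldh1a2, which encodes the enzyme that makes retinoic acid from retinaldehyde, had 3.95 at E9.7 and 6.68, 6.79 and 6.52 at E10.5 (2.72 ± 0.14), again from below the filter level. Igf1, the growth factor, had 6.53 at E9.7 and 8.62, 8.75 and 8.47 at E10.5 (2.09 ± 0.14), and its 4 measured probe sets all met the rule. Fat4, an atypical cadherin of planar polarity, differed by 2.16 ± 0.19, and Islr, a secreted protein of connective tissue cells, by 2.11 ± 0.22. Smoc2, a matrix-associated calcium-binding protein, differed by 2.06 ± 0.36. Bmper, a secreted protein that binds BMPs, had 4.37 at E9.7 and 6.89, 6.19 and 6.24 at E10.5 (2.07 ± 0.39), and its replicate 1 stood above the other two.

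The lowest difference was that of Lin28a, and Prtg, Nr6a1, Sall4 and Trim71 were also among the 15 lowest. Lin28a, an RNA-binding protein that blocks maturation of let-7 microRNAs, had 10.42 at E9.7 and 6.60, 6.22 and 6.60 at E10.5, 15.4-fold lower on average (-3.95 ± 0.22). Trim71, a let-7 target known from early embryos, had 9.24 at E9.7 and 7.26, 7.34 and 7.61 at E10.5 (-1.83 ± 0.18), and Sall4, a zinc finger gene of pluripotent and early embryonic cells, had 10.01 at E9.7 and 8.02, 8.20 and 8.22 at E10.5 (-1.87 ± 0.11). All 3 genes were still well above the filter level at E10.5. Prtg, an immunoglobulin superfamily receptor of early embryos, had 10.48 at E9.7 and 7.90, 7.55 and 7.76 at E10.5 (-2.75 ± 0.18), and its 3 measured probe sets all met the rule. Nr6a1, an orphan nuclear receptor also called germ cell nuclear factor, had 7.06 at E9.7 and 5.02, 4.88 and 5.14 at E10.5 (-2.05 ± 0.13), so that its E10.5 values lay just above the filter level.

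The other genes among the 15 lowest were of several kinds. Wfikkn1, a secreted protein that binds growth factors of the myostatin group, had 7.36 at E9.7 and 4.45, 4.44 and 4.59 at E10.5 (-2.87 ± 0.09). Otx2, a homeobox gene of the forebrain, midbrain and anterior head, had 5.55 at E9.7 and 2.95, 2.86 and 2.69 at E10.5 (-2.71 ± 0.13). The E10.5 values of Wfikkn1 and Otx2 were under the filter level, so the sizes of their differences are uncertain. Csn3, which encodes the milk protein kappa-casein, had 7.29 at E9.7 and 5.27, 4.63 and 4.90 at E10.5 (-2.35 ± 0.32). Lrp2, the endocytic receptor megalin of epithelia, differed by -2.05 ± 0.23, the desmosome gene Pkp2 by -1.66 ± 0.13, and the keratin gene Krt19 by -1.56 ± 0.21. The E10.5 values of Lrp2 and Pkp2 were also under the filter level. Vgll2, a cofactor of TEAD factors expressed in the pharyngeal arches, had 9.59 at E9.7 and 7.93, 7.96 and 8.42 at E10.5 (-1.49 ± 0.27). Mcrip2 (-1.76 ± 0.10), Greb1l (-1.69 ± 0.24) and a probe set annotated to the microRNA gene Mir1949 (-1.69 ± 0.07) completed the group. Which transcript of that locus the probe set detects was not tested.

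**Figure D2:**
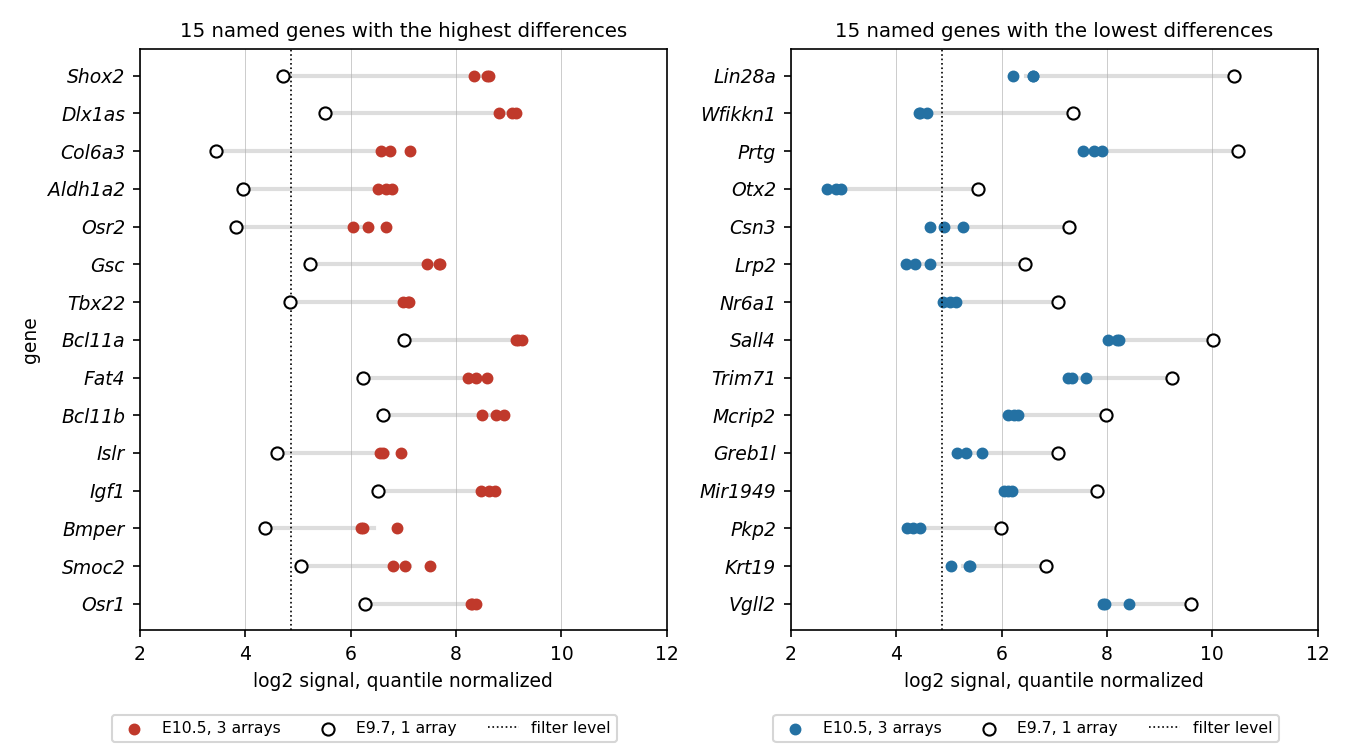
Log2 signal (quantile normalized) of the 15 named genes with the highest (left) and lowest (right) differences; open circles are the E9.7 array, filled circles the 3 E10.5 arrays, and the dotted line is the filter level of 4.86. In every gene the filled circles lie on 1 side of the open circle, as the count rule requires; Col6a3 starts at 3.44 and Lin28a at 10.42.

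Promoter sequences were looked up in RefSeq (build GRCm38.p6), where 86 of the 111 higher and 29 of the 46 lower genes had an entry of 250 bases before to 50 bases after a start site. Both strands were searched for TATAAA (the TATA box), GGGCGG (a GC box), TAATTA (a core bound by many homeodomain proteins) and CAGCTG (an E-box, 1 form of CANNTG). The sequences shown are those of the 2 genes with the highest and the 2 with the lowest differences that had an entry, and of Igf1 and Islr, the highest named genes whose promoter held CAGCTG. They read 5′ to 3′ on the gene's own strand, and capitals mark the searched motifs other than CANNTG on either strand, so that GGGCGG can appear as its complement CCGCCC.
Shox2, chr3:66981722-66982021, minus strand: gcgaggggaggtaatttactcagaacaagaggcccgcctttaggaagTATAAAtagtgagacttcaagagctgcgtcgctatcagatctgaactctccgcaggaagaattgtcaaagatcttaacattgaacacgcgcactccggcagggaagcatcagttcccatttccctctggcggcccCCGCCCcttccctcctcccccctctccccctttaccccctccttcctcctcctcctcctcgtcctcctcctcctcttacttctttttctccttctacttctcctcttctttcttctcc
Col6a3, chr1:90843922-90844221, minus strand: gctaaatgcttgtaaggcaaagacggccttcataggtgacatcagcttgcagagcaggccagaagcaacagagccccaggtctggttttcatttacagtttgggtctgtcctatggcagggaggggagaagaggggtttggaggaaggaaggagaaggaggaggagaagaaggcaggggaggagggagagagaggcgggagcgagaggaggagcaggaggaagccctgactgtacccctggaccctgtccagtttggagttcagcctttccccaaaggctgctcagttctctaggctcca
Islr, chr9:58158505-58158804, minus strand: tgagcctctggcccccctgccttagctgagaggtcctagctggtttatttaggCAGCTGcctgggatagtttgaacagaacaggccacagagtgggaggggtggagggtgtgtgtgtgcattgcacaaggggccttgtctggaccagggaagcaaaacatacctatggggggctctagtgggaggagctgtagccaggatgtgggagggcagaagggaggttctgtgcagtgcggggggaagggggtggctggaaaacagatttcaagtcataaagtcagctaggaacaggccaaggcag
Igf1, chr10:87860861-87861160, plus strand: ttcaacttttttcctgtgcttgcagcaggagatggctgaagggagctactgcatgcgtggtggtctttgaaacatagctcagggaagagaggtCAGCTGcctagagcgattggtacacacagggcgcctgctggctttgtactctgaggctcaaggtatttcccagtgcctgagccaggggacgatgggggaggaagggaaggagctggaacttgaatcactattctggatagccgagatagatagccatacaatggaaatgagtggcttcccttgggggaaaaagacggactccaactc
Wfikkn1, chr17:25880809-25881108, minus strand: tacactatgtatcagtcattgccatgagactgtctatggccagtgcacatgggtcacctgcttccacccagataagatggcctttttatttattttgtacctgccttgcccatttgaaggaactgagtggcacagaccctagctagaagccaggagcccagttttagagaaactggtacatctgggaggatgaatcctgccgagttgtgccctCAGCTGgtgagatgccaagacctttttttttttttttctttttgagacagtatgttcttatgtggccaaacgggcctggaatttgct
Lin28a, chr4:134018767-134019066, minus strand: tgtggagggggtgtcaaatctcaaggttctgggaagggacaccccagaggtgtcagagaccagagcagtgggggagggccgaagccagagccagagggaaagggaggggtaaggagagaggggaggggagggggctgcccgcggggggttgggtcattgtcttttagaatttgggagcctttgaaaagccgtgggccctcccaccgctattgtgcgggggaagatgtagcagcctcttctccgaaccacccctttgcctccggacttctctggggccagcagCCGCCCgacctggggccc

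The Shox2 window held 1 TATAAA and 1 GGGCGG, that of Lin28a 1 GGGCGG, and those of Islr, Igf1 and Wfikkn1 1 CAGCTG each. None of the capitalised motifs lay in the Col6a3 window, which says only that these letters are not in it. CAGCTG lay in a promoter of 27 of the 86 higher genes (31.4%), 2 of the 29 lower genes (6.90%) and 17.6% of the 9294 measured genes with an entry. It was present in 16.3% of all 32851 promoters in the table. TATAAA lay in a promoter of 20.9% of the higher genes, 13.8% of the lower genes and 8.41% of the measured genes, and in 13.6% of all promoters. For GGGCGG the shares were 66.3%, 51.7% and 70.1% of genes and 35.7% of all promoters, and for TAATTA they were 2.33%, 3.45% and 2.96% of genes and 5.29% of all promoters. CANNTG, 6 letters with 2 free positions, lay in a promoter of 70.9%, 65.5% and 66.7% of these genes and in 72.3% of all promoters. These shares are descriptions of the windows and were not tested.

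Patterning genes of the proximal and lateral arch were higher in a few members. Of 17 measured genes 3 were counted as higher and 0 as lower, against 0.965% and 0.4% of all measured genes, and the list median was 0.42. This list and those below were written with earlier results of these data known, so their counts are not independent evidence. The counted members were Shox2, Gsc and Sim2, a bHLH-PAS transcription factor with 4.67 at E9.7 and 6.32, 6.29 and 6.0 at E10.5 (1.54 ± 0.18). The E9.7 values of Shox2 and Sim2 lay under the filter level. Gsc was also counted as higher in the medial piece (2.55), so its difference was not particular to lateral tissue. Others did not pass in every replicate: Emx2 differed by 1.30 ± 0.51, Lhx6 by 1.05 ± 0.13, Pitx1 by 0.73 ± 0.37 and Pou3f3 by 0.70 ± 0.57. With E9.7 set against the E10.5 mean alone, 5 members met the threshold. None of the Dlx genes, which set position along the arch, was counted. Dlx3 was the lowest member of the list (-0.67 ± 0.12), and Dlx2 differed by -0.02 ± 0.20.

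Distal patterning genes, which mark the tip of the arch, had 0 counted members of 11 measured, while 1.36% of all measured genes were counted. A count of 0 in a list of this size is close to that share. The list median was 0.10, and -0.20 with arrays centred on their medians. Gata3, a zinc finger gene of the arch tip, had 5.40 at E9.7 and 4.54, 4.24 and 4.32 at E10.5 (-1.04 ± 0.16), and the LIM homeobox gene Isl1 had 7.49 at E9.7 and 6.66, 6.45 and 6.68 at E10.5 (-0.90 ± 0.13). Their arrays lay below E9.7 in all 3 replicates but not by 2-fold in each, and 1 member, Gata3, was counted without replicate 1. Msx2 differed by -0.43 ± 0.14, Foxf1 by 0.50 ± 0.08 and Hand2 by 0.35 ± 0.17.

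The ligand genes Edn1 and Fgf8, both known from arch epithelium, were lower at E10.5. Edn1, the endothelin ligand that acts on crest mesenchyme, had 6.07 at E9.7 and 4.79, 4.91 and 5.05 at E10.5 (-1.15 ± 0.13) and was the 1 counted member of 9 measured endothelin axis genes (median -0.30). It was not counted on the values as deposited. Fgf8, the ligand of the proximal oral ectoderm, had 7.71 at E9.7 and 6.53, 6.28 and 6.25 at E10.5 (-1.36 ± 0.15) and was the 1 counted member of 14 FGF genes (median -0.06). Both genes had all E10.5 values at least 2-fold below E9.7, as did 0.4% of all measured genes. Among the other members, the Notch ligand gene Jag1 differed by -0.94 ± 0.28, and the FGF target genes Etv5 and Spry2 by -0.70 ± 0.25 and -0.54 ± 0.12. The epithelial markers Krt8, Krt18, Epcam, Cdh1 and Trp63 averaged 8.27 at E9.7 and 7.64 to 7.83 at E10.5 on the same arrays, and their part in these 2 results was not tested.

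BMP, hedgehog, TGF-beta and Notch genes had 1 counted member among them, while 1.36% of all measured genes were counted. That was Bmper, of 17 BMP genes (median 0.19, and -0.14 with arrays centred on their medians). The target genes Id1 (-0.89 ± 0.08), Id4 (-0.65 ± 0.12) and Id2 (0.63 ± 0.03) and the ligand gene Bmp2 (0.84 ± 0.19) were not counted. Of 14 hedgehog genes (median 0.21, and -0.16 with centring) 0 were counted. The largest difference was that of the forkhead gene Foxd1 (1.09 ± 0.13), counted as higher without replicate 2, followed by the effector Gli2 (0.73 ± 0.19). Of 15 TGF-beta genes (median 0.31, and -0.04 with centring) 0 were counted, with the ligand Tgfb2 at 0.94 ± 0.09. Of 12 Notch genes (median 0.03, and -0.20 with centring) 0 were counted, with the receptor Notch1 at 0.52 ± 0.15.

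Wnt genes had 3 higher members of 22 measured and 0 lower, against 0.965% and 0.4% of all measured genes (median 0.43). Dkk2, a secreted modulator of Wnt signals, had 5.0 at E9.7 and 6.67, 6.61 and 6.64 at E10.5 (1.63 ± 0.03). Frzb, a secreted Wnt-binding protein, had 8.48 at E9.7 and 9.82, 9.96 and 9.80 at E10.5 (1.38 ± 0.09), and the receptor Fzd1 had 8.26 at E9.7 and 9.31, 9.42 and 9.30 at E10.5 (1.08 ± 0.06). All E10.5 values of these 3 genes lay at least 2-fold above E9.7. After median centring 1 of the 22 was counted. The feedback gene Nkd1 differed by 0.83 ± 0.22, Wnt9b by 0.71 ± 0.05 and Wnt5a by -0.70 ± 0.20.

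Retinoid genes had 2 higher members of 11 measured and 0 lower, against 0.965% and 0.4% of all measured genes (median 0.57). Besides the synthesis gene Aldh1a2 this was Cyp26b1, which encodes an enzyme that breaks down retinoic acid, with 4.63 at E9.7 and 6.34, 6.40 and 6.25 at E10.5 (1.70 ± 0.07). Both started from E9.7 values below the filter level. The retinol uptake receptor Stra6 differed by 1.26 ± 0.27, the degrading enzyme Cyp26a1 by 0.82 ± 0.08 and the receptor Rarb by 0.67 ± 0.22, none of which met the rule. Of 12 genes of the IGF system Igf1 alone was counted (median 0.11, and -0.34 with centring), and the binding protein genes Igfbp7 and Igfbp5 differed by 0.55 ± 0.38 and -0.51 ± 0.10.

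Arch mesenchyme transcription factors had 4 higher members of 22 measured and 0 lower, against 0.965% and 0.4% of all measured genes (median 0.55). These were Osr1, Osr2, Tbx22 and Six2, a homeobox gene of progenitor mesenchyme with 6.05 at E9.7 and 7.46, 7.81 and 7.91 at E10.5 (1.67 ± 0.23). Close to the threshold but not counted were Eya4 (0.93 ± 0.13), Pax9 (0.93 ± 0.23) and Foxc2 (0.92 ± 0.09). The defining mesenchyme markers Prrx1, Prrx2, Twist1, Dlx2 and Hand2 averaged 10.1 at E9.7 and 10.1 to 10.2 at E10.5. Within them Prrx1 differed by 0.56 ± 0.07 and Prrx2 by -0.70 ± 0.06, in opposite directions and beyond the spread of the E10.5 arrays. Early neural crest genes had 2 higher members of 14, against 0.965% of all measured genes (median 0.26, and -0.09 with centring). They were Pax3, a paired-box gene of crest and muscle precursors (1.49 ± 0.34, from 4.82 at E9.7 and 5.92, 6.44 and 6.55 at E10.5), and the cadherin Cdh6 (1.06 ± 0.04). The count was 1 under 5 of the other settings. Snai1 differed by -0.63 ± 0.06 and Ngfr by 0.76 ± 0.26.

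Of 26 measured matrix genes 8 were counted as higher and 0 as lower, against 0.965% and 0.4% of all measured genes (median 0.51). Collagen VI was represented by each of its 3 listed chains: besides Col6a3, Col6a2 had 6.38 at E9.7 and 7.41, 7.70 and 7.63 at E10.5 (1.21 ± 0.15) and Col6a1 had 4.97 at E9.7 and 6.06, 6.15 and 6.11 at E10.5 (1.14 ± 0.04). Col1a1, the main chain of collagen I, had 5.38 at E9.7 and 7.51, 7.35 and 7.13 at E10.5 (1.94 ± 0.19), while its partner Col1a2 differed by 0.86 ± 0.09 and was not counted. Col8a2, a short-chain collagen, had 5.40 at E9.7 and 7.22, 6.53 and 6.73 at E10.5 (1.43 ± 0.35). The matrix glycoproteins Fbln2 and Tnc differed by 1.32 ± 0.05 and 1.28 ± 0.24, and Lox, the enzyme that cross-links collagen and elastin, by 1.11 ± 0.09. Col6a3 and Tnc started below the filter level at E9.7. After median centring 3 of the 26 were counted, and with the mean of a gene's probe sets 4. The matrix list was written with earlier results of these data known, so its count is not independent evidence.

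Of 16 measured genes that separate the medial from the lateral piece in earlier results of these arrays, 5 were higher and 0 lower. The shares of all measured genes were 0.965% and 0.4%, and the list median was 0.51. The 5 higher genes were Shox2, Dlx1as, Smoc2, Sim2 and Col8a2. The list was chosen on these samples, so it is not independent evidence of a direction.

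**Figure D3:**
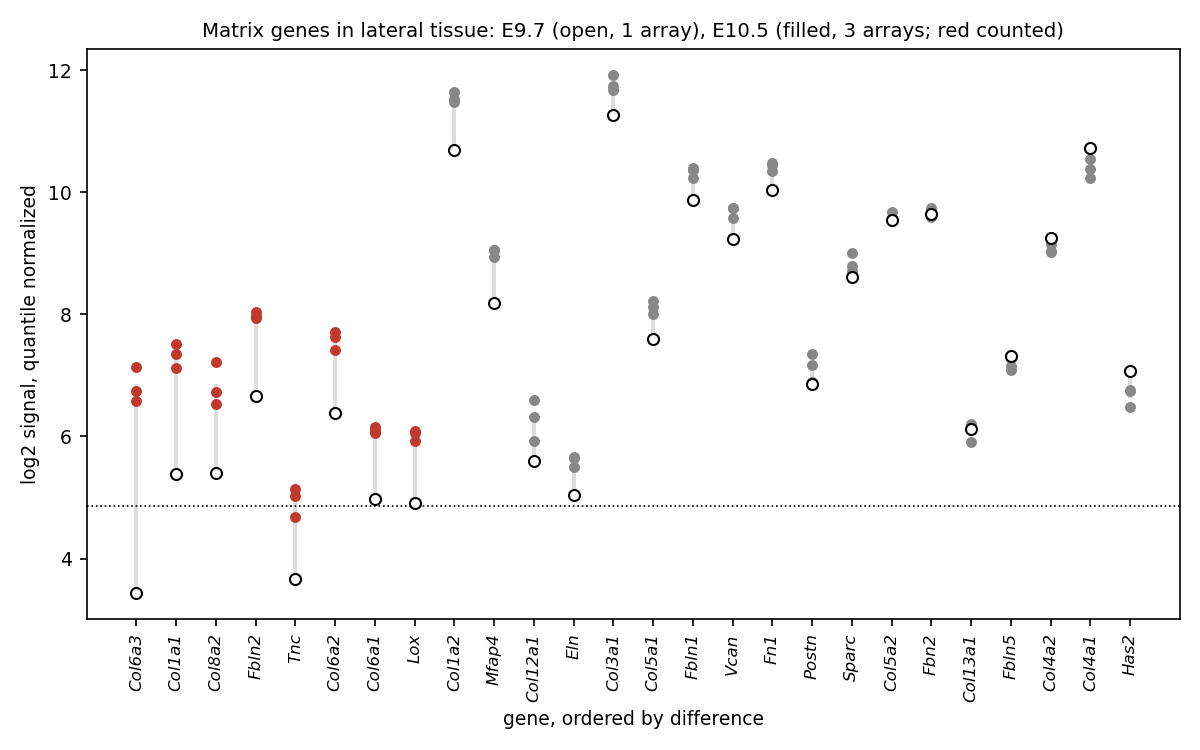
Log2 signal (quantile normalized) of the 26 measured matrix genes in lateral tissue, ordered along the x axis by difference; open circles are the E9.7 array, filled circles the 3 E10.5 arrays (red for the 8 counted genes, grey for the others), and the dotted line is the filter level. Col6a3 has the largest step, and the abundant genes such as Col1a2 were not counted.

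Adhesion and guidance genes included further higher members. Of 23 adhesion genes (median 0.28) 3 were higher and 0 lower, against 0.965% and 0.4% of all measured genes. The 3 were Cdh6, the protocadherin Pcdh18 (1.30 ± 0.18) and the integrin chain Itga8 (1.38 ± 0.10). In each of them 1 probe set met the rule, of 2, 3 and 2 measured. With centring 0 of the 23 were counted. Of 31 guidance and chemokine genes (median 0.19, and -0.18 with centring) 3 were higher and 0 lower, against the same shares of all measured genes. The chemokine Cxcl14 had 5.61 at E9.7 and 7.67, 7.47 and 7.16 at E10.5 (1.83 ± 0.26), the ephrin receptor Epha4 6.85 at E9.7 and 8.62, 8.36 and 8.55 at E10.5 (1.66 ± 0.13) and the scavenging chemokine receptor Ackr3 6.88 at E9.7 and 8.33, 8.50 and 8.41 at E10.5 (1.53 ± 0.08). Each of these was measured at both stages. Of 20 proteases and inhibitors 0 were counted (median 0.08, and -0.34 with centring), with Timp3 at 0.96 ± 0.15.

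Muscle, cartilage and tendon genes were mostly not counted, and of all measured genes 1.36% were. Tcf21, a bHLH gene of head muscle precursors and mesenchyme, had 7.57 at E9.7 and 6.38, 5.96 and 6.26 at E10.5 (-1.37 ± 0.22) and was the 1 lower gene of 9 measured muscle precursor genes (median -0.06). Without replicate 1 there were 3. Lhx2, a LIM homeobox gene of head muscle precursors, differed by -1.32 ± 0.32, and Myog, the regulator of muscle differentiation, by 0.89 ± 0.10; neither was counted. The cardiac actin gene Actc1, which embryonic skeletal muscle also uses, had 4.67 at E9.7 and 6.83, 6.35 and 6.46 at E10.5 (1.88 ± 0.25) and was the 1 higher gene of 12 differentiation genes (median 0.46), or 1 of 2 without replicate 2. These 12 were the measured ones of 28 listed, and all 12 differences lay above 0. Actc1 and Myog (3.98) lay under the filter level at E9.7 and were measured only through E10.5. For such genes the filter itself favours a difference above 0, so the sign and the median are not independent evidence. Among 10 cartilage genes (median -0.12) 0 were counted, with the matrix link protein Hapln1 at -0.99 ± 0.39 and Sox6 at -0.73 ± 0.27. Of 3 bone genes Col1a1 was counted. Of 10 tendon and connective tissue genes (median 0.37) Tnc and Osr1 were counted as higher, and the tendon factor Scx differed by 0.87 ± 0.22.

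Epithelial genes were lower in part. Of 25 measured, 3 were counted as lower and 0 as higher, against 0.4% and 0.965% of all measured genes. The list median was -0.13. All 3 encode keratins of simple epithelia. Krt18 had 9.11 at E9.7 and 7.78, 7.75 and 7.66 at E10.5 (-1.38 ± 0.06), Krt19 had 6.84 at E9.7 and 5.39, 5.41 and 5.04 at E10.5 and Krt7 had 7.17 at E9.7 and 5.82, 5.83 and 5.39 at E10.5 (-1.49 ± 0.25). The keratin gene Krt8 had 8.67 at E9.7 and 7.84, 7.46 and 7.82 at E10.5 (-0.97 ± 0.21) and was just not counted. The keratin Krt5 of stratified epithelia differed by 0.74 ± 0.22, and the epithelial splicing regulator Esrp1 and the factor Grhl2 by -0.75 ± 0.04 and -0.78 ± 0.07. Among the epithelial markers Epcam differed by -0.49 ± 0.11, Trp63 by -0.20 ± 0.15 and Cdh1 by 0.28 ± 0.18, so the markers did not share a direction.

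Of the other cell types of the arch, macrophage genes had 2 higher of 9 measured, against 0.965% of all measured genes. All 9 differences were above 0, and the median of 0.92 was the highest of the 42 lists. Of the 20 listed genes, 9 were measured. Members such as Lyz2, Tyrobp (4.16) and Ctss (4.40) had E9.7 values under the filter level and were measured only through E10.5. For such genes the filter itself favours a difference above 0, so the shared sign and the median are not independent evidence. Csf1r, the receptor that macrophages depend on, had 5.04 at E9.7 and 6.55, 6.69 and 6.63 at E10.5 (1.59 ± 0.07). Of its 3 measured probe sets 1 met the rule. Lyz2, a lysozyme gene whose close relative Lyz1 was also counted and may share its signal, had 3.79 at E9.7 and 5.08, 5.75 and 5.12 at E10.5 (1.53 ± 0.38). On the values as deposited 6 of the 9 were counted. Most members were dim: the markers Csf1r, Cx3cr1, Mrc1 and Adgre1 averaged 4.50 at E9.7 and 5.25 to 5.36 at E10.5, and Cx3cr1 and Adgre1 were not measured. Endothelial genes had 0 counted of 23 (median -0.05), with markers at 6.85 at E9.7 and 6.74 to 6.88 at E10.5. Red cell genes had 0 counted of 14 (median 0.14, and -0.11 with centring), with the embryonic globin gene Hba-x at 0.44 ± 0.12. Pericyte and smooth muscle genes had 0 counted of 7, with Acta2 at 0.99 ± 0.07, counted as higher without replicate 2.

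Genes of neighbouring tissues were largely dim. Their counts stand beside 1.36% counted of all measured genes. Of 6 measured neuronal genes the neurofilament gene Nefm was counted as higher, with 4.08 at E9.7 and 5.32, 5.31 and 5.19 at E10.5 (1.20 ± 0.07), while the marker Tubb3 differed by 0.72 ± 0.07 and Stmn2 and Neurod1 were not measured. Of 8 glial genes (median 0.43) 0 were counted, with Sox10 at 0.52 ± 0.17 and Fabp7 at 0.68 ± 0.24. Of 8 pharyngeal endoderm genes 0 were counted, with Sox2 at -0.81 ± 0.11 and Foxa2 at -0.69 ± 0.09. Of 3 measured genes in the list named otic and hindbrain, Otx2 was counted as lower. Since Otx2 is a gene of the forebrain, midbrain and anterior head, its count is not a result about the hindbrain. Of 7 heart and outflow genes Hopx, a homeodomain-only cofactor, was lower, with 8.39 at E9.7 and 6.54, 6.88 and 7.36 at E10.5 (-1.46 ± 0.41), while the cardiac markers Myl7 and Nppa were not measured. Of 6 Hox genes 0 were counted (median 0.50), with Hoxb3 at 0.74 ± 0.32. First arch crest is known to lack Hox expression, yet 6 of the 19 Hox genes with a named probe set were measured. Hoxc9, for example, had 5.41 at E9.7 and a mean of 5.90 at E10.5. A value above the filter level may therefore not mean that a gene is expressed, which was not tested.

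Of 13 measured Lin28 and early growth genes, 4 were counted as lower and 0 as higher, against 0.4% and 0.965% of all measured genes (median -0.49). Besides Lin28a, Trim71 and Sall4 this was Myc, the growth-promoting transcription factor, with 8.33 at E9.7 and 7.19, 7.15 and 7.19 at E10.5 (-1.15 ± 0.02). The de novo methyltransferase genes Dnmt3b and Dnmt3a differed by -0.49 ± 0.09 and 0.69 ± 0.43, and Arid3a and Arid3b by -0.57 ± 0.06 and -0.58 ± 0.15. The list was not uniform, with 3 members above 0. It was written with earlier results of these data known, so its count is not independent evidence.

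Genes of growth, cycling and metabolism had few counted members, beside 1.36% of all measured genes. Of 31 cell cycle genes 0 were counted (median 0.05, and -0.48 with centring); the largest difference was that of the cyclin-dependent kinase inhibitor Cdkn1c (0.91 ± 0.16). Of 19 imprinted growth genes 0 were counted (median 0.13, and -0.44 with centring), with Peg10 at -0.97 ± 0.20. Among 21 hypoxia and glycolysis genes (median -0.28) 14 differences lay below 0 but none met the rule for lower genes. They included the phosphofructokinase gene Pfkp (-0.92 ± 0.10) and the glucose transporter genes Slc2a3 (-0.85 ± 0.17) and Slc2a1 (-0.70 ± 0.19). Ddit4, a stress-induced inhibitor of mTORC1, was the 1 member counted as higher, with 7.38 at E9.7 and 8.56, 9.23 and 9.0 at E10.5 (1.55 ± 0.34). Of 16 immediate early and stress genes (median 0.32) the factor Jun was higher, with 6.23 at E9.7 and 7.49, 7.51 and 7.30 at E10.5 (1.21 ± 0.11), and Fos differed by 0.73 ± 0.10. With centring neither list had a higher member, and 1 hypoxia and glycolysis gene was lower. None of 12 ribosomal protein genes (median -0.01), 11 housekeeping genes (median 0.00) and 4 sex-linked genes was counted. In all, 25 of the 42 lists had a counted member, and 108 of the 157 counted genes were in no list.

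**Figure D4:**
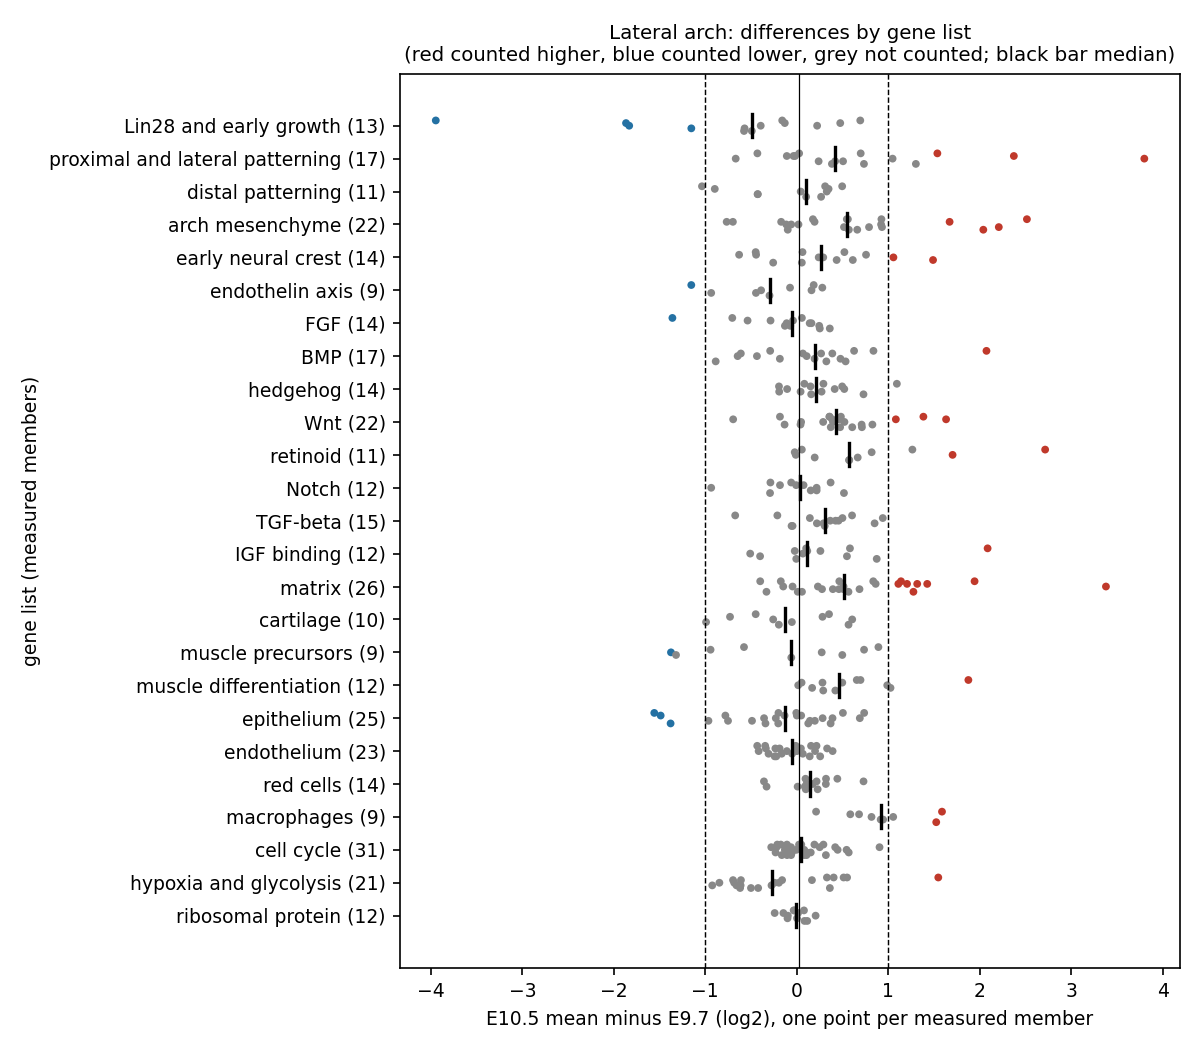
Differences between E10.5 and E9.7 (log2, x axis) of the measured members of 25 of the gene lists (y axis, members in brackets), 1 point per gene; red points were counted as higher, blue as lower, black bars are list medians and dashed lines mark 2-fold. The matrix list holds 8 red points, the Lin28 and early growth list 4 blue points, and the ribosomal protein genes lie close to 0.

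The medial piece was measured at the same stages on other arrays, 3 at E10.5 and 1 at E9.7, with none in common with the lateral comparison. By the same rule 74 of 11445 genes measured there were higher (0.647%) and 42 lower (0.367%). Medial replicate 1 had low signal, with a deposited median of 2.37 against 5.24 to 5.73 on the lateral arrays, and without it the medial counts were 136 (1.19%) and 66 (0.577%). Over the 11216 genes measured in both pieces, 35 genes were counted as higher in both, 35.7% of the 98 lateral and 58.3% of the 60 medial genes. As lower, 16 were counted in both, 37.2% of the 43 lateral and 43.2% of the 37 medial genes. Without medial replicate 1 the shared counts were 52 (53.1% of lateral, 45.2% of medial) and 25 (58.1% and 41.7%). Of the lateral genes, 94 of 98 higher and 43 of 43 lower had a medial difference of the same sign, with medians of 1.09 and -1.12. The share of same-sign genes over all 11216 genes was not worked out, so there is no background for these 2 counts. Each piece was set against 1 E9.7 array, and the part of those arrays in the shared sign was not tested.

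Several leading genes were counted in both pieces. Lin28a differed by -3.95 in lateral and -4.32 in medial tissue, Prtg by -2.75 and -2.67, and Wfikkn1 by -2.87 and -3.55. The E10.5 values of Wfikkn1 lay under the filter level in both pieces. Among higher genes Gsc differed by 2.37 and 2.55, Tbx22 by 2.21 and 2.22, Igf1 by 2.09 and 1.94, and Osr1 by 2.04 and 3.10. The count held for these 7 genes with and without medial replicate 1. Col6a3 (3.38 and 2.14) and Aldh1a2 (2.72 and 1.79) were also counted in both.

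Other leading genes were near 0 or dim in the medial piece. Shox2 had 3.61 at E9.7 and 3.63, 4.20 and 3.63 at E10.5 in medial tissue, Dlx1as had 3.53 at E9.7 and 3.83, 4.07 and 3.06 at E10.5 and Osr2 had 3.51 at E9.7 and 3.90, 3.87 and 3.52 at E10.5. None of these 3 genes was measured in medial tissue, where their values lay below the filter level at both stages. Smoc2 had a medial difference of 0.37 (0.49 without medial replicate 1), Sim2 of 0.06 (-0.25) and Col8a2 of 0.03 (-0.07), and these were not measured there either. The neural crest cadherin Cdh6, measured in both pieces, differed by 1.06 in lateral and 0.06 in medial tissue, and by 0.37 in medial tissue without the low-signal replicate 1. Measured in both pieces were 98 higher and 43 lower lateral genes. For 25 and 6 of them all 3 medial E10.5 arrays, with low-signal replicate 1, lay within 2-fold of medial E9.7. The same share over all genes measured in both pieces was not worked out, so these counts do not mark a lateral-only set. Whether the lateral and medial differences differ was not tested, since each piece had 1 array at E9.7.

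**Figure D5:**
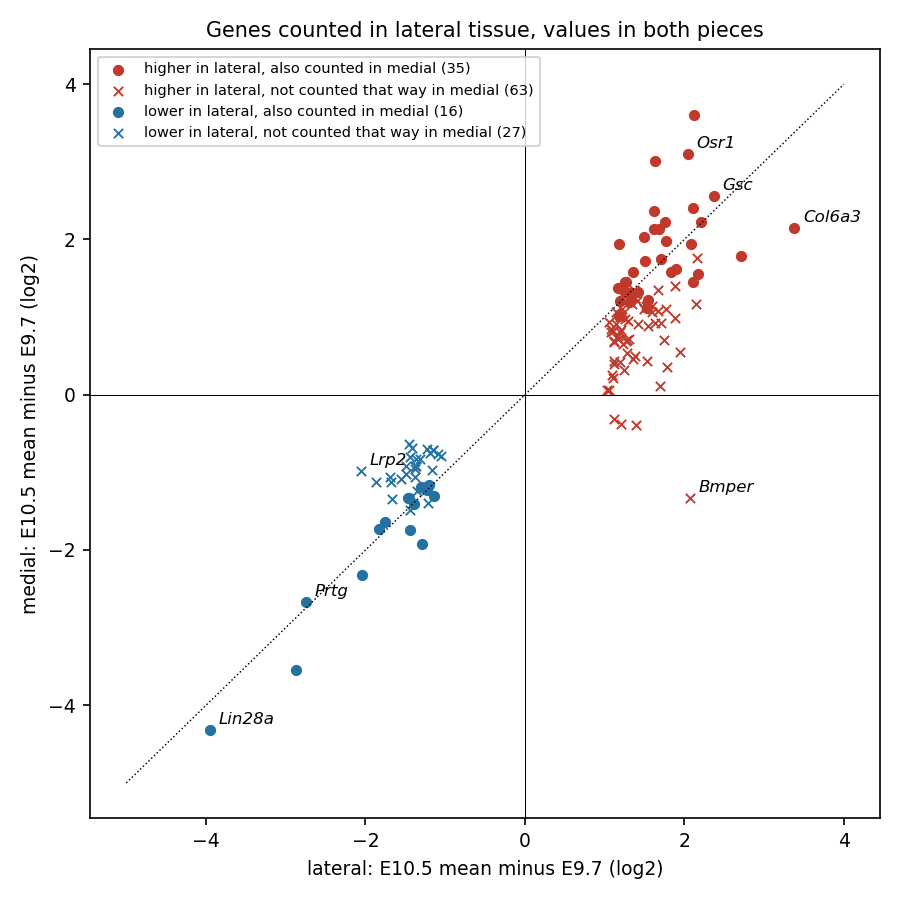
Genes counted in lateral tissue and measured in both pieces, with the lateral difference (E10.5 mean minus E9.7, log2) on the x axis and the medial difference on the y axis. Filled circles were counted in the same direction in medial tissue, and crosses were not. The dotted line marks equal differences. Of 98 higher genes (red) 35 are filled and of 43 lower genes (blue) 16 are filled. Bmper, a cross, lies below 0 on the medial axis and was counted as lower there.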

How the data were processed

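The deposited values are log2 signals of 45101 probe sets on 11 arrays, made by the authors with Affymetrix Expression Console 1.1, per the submitters' processing notes. The summarisation algorithm was not given in the sources used here, and the log2 base was taken from the range, 0.09 to 14.53. Here the deposited log2 values were quantile normalized over the 11 arrays, which removes any overall shift between them, with numpy 2.4.6 and pandas 2.3.3 (Python 3.11.15). Probe sets were named through GEO's platform annotation, updated by Entrez ID. Of the probe sets, 34958 had 1 symbol, 932 several and 9211 none, and the latter kinds were not used. Each gene was represented by the probe set with the highest mean over all arrays, and the filter level was the 50th percentile of all values. No test was made, so a count has no error rate. The number of arrays limits the precision, and the E9.7 side has no replicate.

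The rule for named genes took the 15 highest and 15 lowest differences among counted genes, without predicted, Riken or unnamed transcripts. Each list added its counted members and up to 4 others with the largest absolute difference, to which defining cell type markers, genes next to the threshold and genes of opposite sign in medial tissue were added. Dlx1, Dlx2, Hand2, Lyz1 and the genes named beside a counted relative were chosen after their values were seen. The members and lists were chosen with earlier results of these data known. The counting script was tested on simulated data. Alternatives were other scales between arrays, other filters on dim genes, the mean of a gene's probe sets, a count against the E10.5 mean, and leaving out each E10.5 array.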

Additional observations from a re-analysis of the deposited data

Results flagged for a closer look

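In 3 genes counted as higher in lateral tissue, every medial E10.5 array lay on the other side of its own E9.7 array. The difference between the pieces was not tested. Bmper, which encodes a secreted BMP-binding protein, differed by 2.07 in lateral tissue (4.37 at E9.7 and 6.89, 6.19 and 6.24 at E10.5). In medial tissue it differed by -1.33 (5.33 at E9.7 and 3.89, 4.13 and 3.96 at E10.5), and by -1.28 without medial replicate 1. It met the rule for lower genes there, with and without that replicate. Its lateral E9.7 value and its medial E10.5 values lay under the filter level. Jun, an immediate early transcription factor, differed by 1.21 in lateral tissue and -0.38 in medial tissue, where its values were 7.93 at E9.7 and 7.66, 7.35 and 7.65 at E10.5. Lox, the collagen cross-linking enzyme, differed by 1.11 in lateral tissue and -0.32 in medial tissue, with 4.89 at E9.7 and 4.18, 4.68 and 4.86 at E10.5; without medial replicate 1 the medial difference was -0.12. Lox was also the gene nearest but one to the threshold among higher lateral genes.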

How the results depend on the processing

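The counts of 111 higher and 46 lower genes depended on the scale and on the rule. With each array centred on its median they were 62 and 77, of which 61 and 46 were among the original genes. Counted against the E10.5 mean in place of each array they were 181 and 79. Leaving out 1 E10.5 array gave 123 to 189 higher and 50 to 81 lower genes, the largest without replicate 1, and fewer arrays in the rule can only add genes. The values as deposited gave 155 and 33. Quantile normalization over the 4 lateral arrays gave 107 and 46, no filter 112 and 47, a filter at the 60th percentile 96 and 43, all 4 arrays above the filter level 75 and 32, and the mean of a gene's probe sets 77 and 38. None of the 63 named counted genes that were checked reversed its direction under these settings, and the 2-fold rule made a reversal unlikely. List counts of a few genes moved with the filter that asks for signal at both stages, since it leaves out genes that were dim at E9.7. No paired analysis was possible because the lateral E9.7 group has 1 array. Depth on an array is signal over background, and 36 higher and 11 lower genes lay under the filter level on 1 side.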
